A study of Mus musculus with 13 samples.

Results

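The mouse genome holds many genes named Zfp followed by a number, which encode zinc finger proteins and often lie side by side. They were taken here as the protein-coding genes of mm9 (GENCODE M1) with such a symbol whose 5′ end lay within 200 kb of that of another such gene. The rule gave 201 genes of the 22367 protein-coding genes, in 51 clusters on 15 chromosomes, and left 138 Zfp genes unclustered. Of the clusters, 27 held 2 genes, 10 held 3 or 4 and 14 held 5 or more, and these 14 held 114 of the 201 genes. Chromosome 7 alone carried 73 members in 14 clusters, and the largest cluster, Zfp712 to Zfp273 on chromosome 13, had 17.

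The lists came from ChIP-seq of Hepa 1-6, a murine hepatoma cell line, which sequences the DNA pulled down by an antibody and calls regions where reads pile up. KAP1 and the histone marks H3K9me3, H3K27ac and H3K4me1 were profiled in cells under standard culture. The RNA polymerases II (PolII) and III (PolIII) were profiled 5 days after transduction, in cells given a control hairpin (an empty vector per the study's methods) and in cells given a hairpin against Kap1 (Kap1 KD). Each of these 8 groups was 1 library, so no value below has a replicate error, and the 5 input libraries were not analysed here. The lists held from 431 regions (PolIII, Kap1 KD) to 74014 (H3K4me1), and the read depth behind them is unknown. KAP1 was profiled under standard culture alone, so the lists give no check of the knockdown. The study reports its own check by RT-qPCR, a measure of RNA, for the samples used for PolII. Among hepatocyte genes, Alb, Afp, Hnf4a and Trf had H3K27ac over the promoter and Ttr, Apoa1 and Serpina1a did not, and of 6 markers of other cell types 1 did (Col1a1).

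KAP1, the product of Trim28, is a corepressor that has no sequence-specific DNA binding of its own. Zinc finger proteins with a KRAB domain recruit it, and it works with the methyltransferase SETDB1, which deposits H3K9me3, and with the HP1 proteins that bind this mark. Many clustered zinc finger genes encode KRAB proteins, so that they code for the partners of KAP1. In a C2H2 zinc finger a pair of cysteines and a pair of histidines hold a zinc ion. The fingers follow each other in an array joined by short conserved linkers, and one exon at the 3′ end of the gene usually encodes the whole array.

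Each gene was divided into a promoter (250 bp to each side of its 5′ end), a 3′ exon (the last exon of its transcript with the longest coding sequence) and a gene body (the rest). A gene was counted for a list where a region shared at least 1 bp with that part. The 3′ exon of the members was long, with a median of 2275 bp against 962 bp over all genes, while their median gene length (13672 bp) was close to that of all genes (15427 bp). The array lay where the background above places it. A C2H2 match was found in 199 members, with a median of 11 matches and at most 33, and in 187 members every match was encoded by the 3′ exon.

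The coding sequence under the KAP1 peaks is shown for 4 members, because it is the place at which KAP1 and H3K9me3 met. Zfp180 is a locus the study shows. Zfp282, Zfp787 and Zfp771 lead their clusters by KAP1 score and stand at 3100, a value tied with 3 other members (Zfp316, Zfp777 and Zfp629), and ties within a cluster went by position. Each run is 200 bases of the coding part of the 3′ exon under the peak in mm9, on the strand of the gene, at chr7:24890610-24890809 (+), chr6:47854965-47855164 (+), chr7:6084230-6084429 (-) and chr7:134397618-134397817 (+). Capitals mark the 8 letters GAGAAACC, which encode part of the linker between fingers.
Zfp180: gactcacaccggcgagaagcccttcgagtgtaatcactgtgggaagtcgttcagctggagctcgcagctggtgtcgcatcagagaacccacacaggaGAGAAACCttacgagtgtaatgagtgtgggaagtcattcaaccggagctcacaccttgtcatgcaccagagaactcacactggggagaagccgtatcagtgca
Zfp282: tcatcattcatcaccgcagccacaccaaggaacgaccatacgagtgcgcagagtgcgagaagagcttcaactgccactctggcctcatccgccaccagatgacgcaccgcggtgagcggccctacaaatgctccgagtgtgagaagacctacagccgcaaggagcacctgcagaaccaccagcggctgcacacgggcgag
Zfp787: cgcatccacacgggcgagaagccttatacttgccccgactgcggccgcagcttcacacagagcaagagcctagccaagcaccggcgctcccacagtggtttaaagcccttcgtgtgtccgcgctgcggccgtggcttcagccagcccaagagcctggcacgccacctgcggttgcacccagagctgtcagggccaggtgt
Zfp771: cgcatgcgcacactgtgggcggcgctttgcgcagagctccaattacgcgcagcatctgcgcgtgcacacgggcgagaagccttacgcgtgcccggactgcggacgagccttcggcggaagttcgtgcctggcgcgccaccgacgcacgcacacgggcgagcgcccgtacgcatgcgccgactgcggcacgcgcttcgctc

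The marked letters occur 1 time in the run of Zfp180 and in none of the other 3. These letters, on either strand, lay in the 3′ exon of 73.1% of members and 10.4% of all genes. They lay in 66% of the KAP1 peaks over members' 3′ exons, 71.4% of those over the 3′ exons of unclustered Zfp genes and 13% of the whole KAP1 list. Whether the letters are bound was not tested.

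For the promoters with KAP1, Zfp12 and Zfp248 are shown, the members with the highest KAP1 score over the promoter among those with control PolII, no H3K9me3 and no annotated exon in the window. Each run is the 200 bases before the 5′ end in mm9, at chr5:143996642-143996841 (+) and chr6:118405547-118405746 (-), with CG in capitals.
Zfp12: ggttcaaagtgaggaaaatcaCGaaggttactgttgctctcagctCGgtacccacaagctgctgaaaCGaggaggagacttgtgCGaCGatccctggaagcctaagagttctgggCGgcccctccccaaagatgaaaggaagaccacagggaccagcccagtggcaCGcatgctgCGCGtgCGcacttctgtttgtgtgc
Zfp248: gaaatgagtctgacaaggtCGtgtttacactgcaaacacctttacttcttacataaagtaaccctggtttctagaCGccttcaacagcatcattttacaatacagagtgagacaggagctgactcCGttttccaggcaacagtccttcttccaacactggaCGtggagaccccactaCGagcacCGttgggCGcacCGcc

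The promoter runs hold 10 CG (Zfp12) and 8 (Zfp248). The exon runs above, where CG is not in capitals, hold 9 (Zfp180), 15 (Zfp282), 15 (Zfp787) and 35 (Zfp771), so these few runs do not show fewer CG in the exons. Over whole peaks, those at members' promoters held a median of 6.08 CG per 100 bases and those at their 3′ exons 2.21, against 6.37 and 4.44 for all genes.

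H3K9me3 over the 3′ exon was the most frequent finding. It lay over the 3′ exon of 115 of the 201 members (57.2%, 95% Wilson interval 50.3 to 63.9%), against 6.07% of all genes and 26.8% of the unclustered Zfp genes. KAP1 lay over the 3′ exon of 51 members (25.4%, 19.9 to 31.8%), against 3.17% of all genes and 15.2% of the unclustered Zfp genes. Both lay there in 48 members (23.9%), against 1.44% of all genes, 13% of the unclustered Zfp genes and 14% of the other genes with 5 or more C2H2 matches. The intervals cover counting error over genes only, and neighbouring genes that share a region are not independent.

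**Figure D1:**
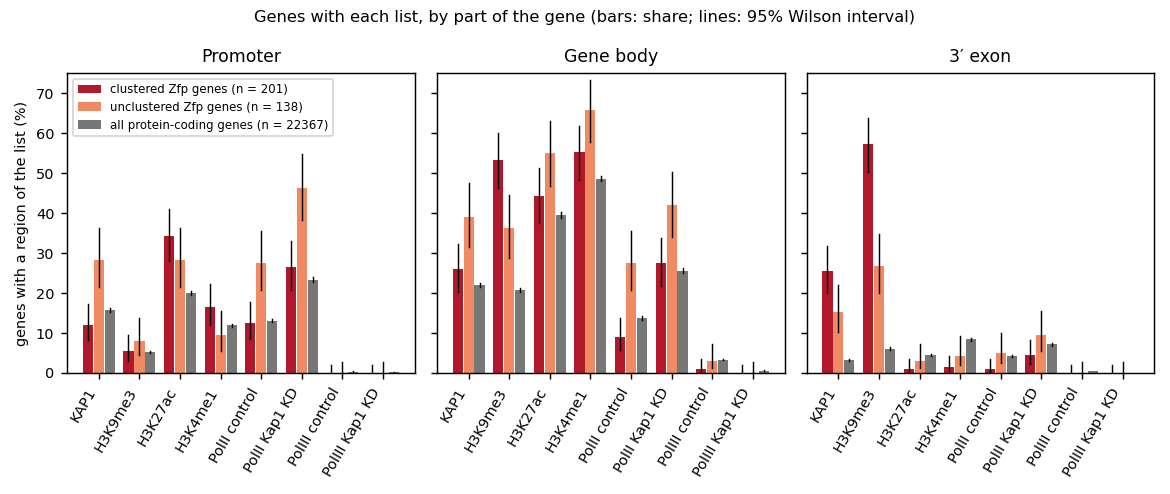
Share of genes (%) with a region of each of the 8 lists over the promoter, gene body and 3′ exon, for the 201 clustered Zfp genes, the 138 unclustered ones and all 22367 protein-coding genes. Bars are shares and lines are 95% Wilson intervals. H3K9me3 over the 3′ exon stands at 57.2% in the clustered genes and 6.07% in all genes.

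The shares were also set against genes with a long 3′ exon. Among the 4107 genes whose 3′ exon was at least as long as the median of the members, 9.91% had H3K9me3 and 5.45% had KAP1 there, and among the 101 members of that length 67.3% and 31.7% did. Where H3K9me3 was present in a member, it covered a median of 65.7% of the exon (lowest 5.62%, highest 100%), against 50.3% in the 1358 genes of the whole set with a region there. At least 50% of the exon was covered in 74 members (36.8%), 18.1% of the unclustered Zfp genes and 3.06% of all genes. The regions over members' 3′ exons had a median width of 1482 bp, against 324 bp in the whole list.

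Along the gene the signals had different places. Around the 5′ end, H3K27ac was highest 650 bp downstream, at 27.9% of members. KAP1 stood at 11.9% from 250 bp before the 5′ end to 250 bp after it, and H3K9me3 at 3.48% just after it. Counted from the start of the 3′ exon, H3K9me3 was highest 850 bp into it, at 49.3% of members, and KAP1 was highest 750 bp into it, at 24.4%. Over all genes neither exceeded 3.76% there. In bases, H3K9me3 covered 47.7% of the coding part of the members' 3′ exons, 21.9% of the noncoding part, 11.1% of the gene bodies, 3.49% of the promoters and 10.5% of the 5 kb downstream. Over all genes these values were 8.54%, 1.62%, 1.26%, 3.22% and 1.95%, so the promoter value was near that of all genes, and the coding part stood above the noncoding part there too. In the unclustered Zfp genes H3K9me3 covered 31.9% of the coding and 6.78% of the noncoding part. KAP1 covered 21.9% of the members' coding part and 7.02% of the noncoding part, against 4.24% and 0.999% over all genes.

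**Figure D2:**
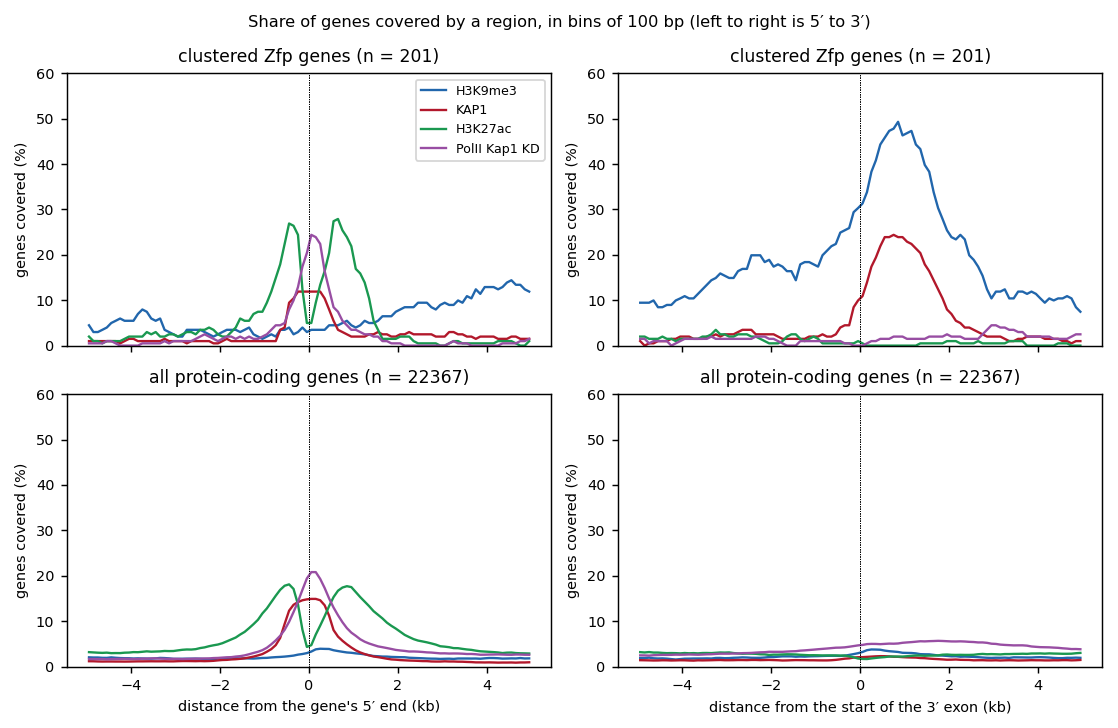
Share of genes (%) covered by a region in bins of 100 bp, by distance (kb) from the 5′ end of the gene (left) and from the start of the 3′ exon (right), for clustered Zfp genes (top) and all protein-coding genes (bottom). In the clustered genes H3K9me3 and KAP1 peak at 49.3% and 24.4% inside the 3′ exon, and H3K27ac peaks on both sides of the 5′ end.

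KAP1 and H3K9me3 over the 3′ exon were often found at the same genes. Of the 51 members with KAP1 there, 94.1% had H3K9me3, and of the 150 without KAP1, 44.7% did. These shares were 85.7% and 16.2% in the unclustered Zfp genes and 45.5% and 4.78% in all genes, so a higher share with KAP1 was seen in each set. In turn, KAP1 lay over the 3′ exon of 41.7% of the 115 members with H3K9me3 and 3.49% of the 86 without. In the unclustered Zfp genes these shares were 48.6% and 2.97%, and in all genes 23.7% and 1.84%. The 3 members with KAP1 and no H3K9me3 were Zfp398, Zfp239 and Zfp709. The 53 KAP1 peaks over members' 3′ exons had a median score of 236, against 102 in the whole list, and 34% of them were in its top 10%. Over the 3′ exons of unclustered Zfp genes the median score was higher, at 318 with 47.6% in the top 10%, and over those of all genes it was 153 with 22.5%. Of these peaks, 46 were centred inside the finger array, 94.3% met H3K9me3 and 3.77% met H3K27ac or H3K4me1, against 49.1% and 42.8% of the peaks over the 3′ exons of all genes and 85.7% and 4.76% of those of unclustered Zfp genes.

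Zfp180 (chr7:24866943-24892717) had a KAP1 peak of score 378, rank 1481 of 12470, at chr7:24889316-24892104, and H3K9me3 over 100% of its 3′ exon. It had no region of any list over the promoter. In Zfp282 (chr6:47827203-47858484) the peak of score 3100 lay at chr6:47854093-47856038, H3K9me3 covered 61.1% of the 3′ exon, and H3K27ac and H3K4me1 lay over the promoter. In Zfp787 (chr7:6083091-6107573) H3K9me3 covered 100% of the 3′ exon under a KAP1 score of 3100, and a second KAP1 peak, of score 72.8, lay over the promoter with PolII in both conditions. Zfp771 (chr7:134388040-134398317) had the same score and cover over the 3′ exon, and H3K27ac over the promoter. The KAP1 scores of the leading members of the other clusters of 5 or more were 3028 in Zfp30, 493 in Zfp324, 365 in Zfp763, 343 in Zfp810, 154 in Zfp942 and 125 in Zfp712. The last, in the largest cluster, had H3K9me3 over 17.4% of the 3′ exon.

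The number of fingers was compared with the marks after these values had been seen. H3K9me3 lay over the 3′ exon of 23.1% of the 13 members with fewer than 5 matches, 51% of the 51 with 5 to 9, 63.4% of the 93 with 10 to 14 and 61.4% of the 44 with 15 or more. In the 300 other genes with 5 or more matches the shares were 26.8%, 50.0% and 68.6% in the same 3 classes, and 41.7% in all. For KAP1 the members' shares from 5 matches on were 27.5%, 28.0% and 20.5%, and those of the other genes 8.05%, 24.0% and 19.6%. The gap between members and other genes was widest in the class of 5 to 9 matches for both lists, and it was not tested.

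**Figure D3:**
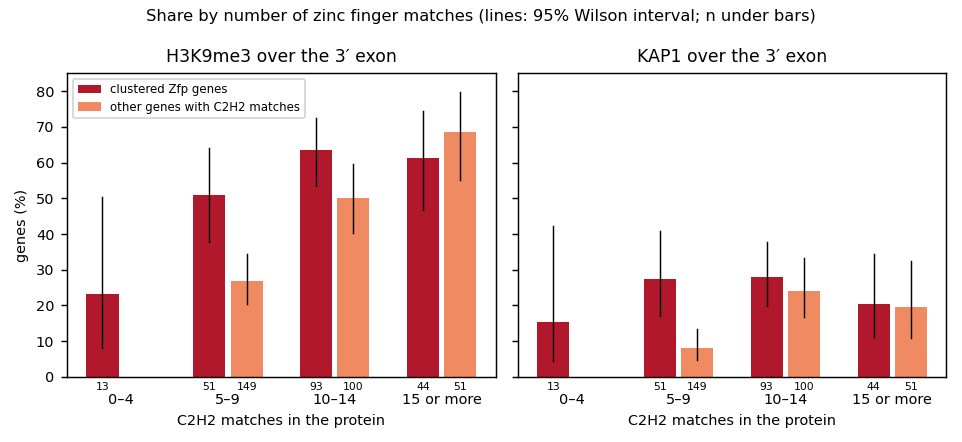
Share of genes (%) with H3K9me3 (left) and KAP1 (right) over the 3′ exon, by the number of C2H2 matches in the protein, for clustered Zfp genes and for other genes with 5 or more matches. Lines are 95% Wilson intervals and n is printed under each bar. At 15 or more matches the shares for H3K9me3 are 61.4% and 68.6%.

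The array can also lie outside the 3′ exon as defined here. In 8 members no match fell in it, and of these 1 had H3K9me3 over the 3′ exon while 6 had it over the array (Zfp865, Zfp329, Zfp939, Zfp287, Zfp708 and Zfp595). Inside the cluster spans there were also genes of other names. Of the 22 with 5 or more matches, 16 (72.7%) had H3K9me3 over the 3′ exon, and of the 80 with fewer, 8 (10.0%) did.

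The promoters looked different from the 3′ exons. KAP1 lay over the promoter of 24 members (11.9%, 8.16 to 17.2%), against 15.7% of all genes and 28.3% of the unclustered Zfp genes. With KAP1 peaks above the median score alone, 5 members (2.49%) kept one, and the share of all genes at this cut was not counted. H3K9me3 lay over the promoter of 11 members (5.47%, 3.08 to 9.53%), against 5.24% of all genes and 7.97% of the unclustered Zfp genes. It stood at 16.3% in the other genes with 5 or more C2H2 matches. Of the 11 members, 9 also had it over the 3′ exon. With a promoter of 1 kb to each side 9.95% of members had H3K9me3, and no share of all genes was counted for that width. H3K27ac lay over 69 promoters (34.3%, 28.1 to 41.1%), against 20.0% of all genes and 28.3% of the unclustered Zfp genes. H3K4me1 lay over 33 (16.4%), against 11.9% and 9.42%. With the 1 kb promoter 49.8% of members had H3K27ac, and again no share of all genes was counted. No member had both H3K9me3 and H3K27ac over the promoter, which 0.188% of all genes and no unclustered Zfp gene had. H3K27ac over the promoter with H3K9me3 over the 3′ exon of the same gene was found in 42 members (20.9%), against 0.8% of all genes and 7.25% of the unclustered Zfp genes. Members with and without H3K9me3 over the 3′ exon had H3K27ac over the promoter in 36.5% (28.3 to 45.6%) and 31.4% (22.6 to 41.8%) of cases. These shares were 27% and 28.7% in the unclustered Zfp genes and 13.2% and 20.4% in all genes, where the order was the other way.

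KAP1 over a promoter kept other company than KAP1 over a 3′ exon. Of the 24 members, 16 had H3K27ac over the promoter, 14 had control PolII and 1 had H3K9me3 (Zfp316, the highest-scoring, at 728). Without KAP1 over the promoter, 29.9% of 177 members had H3K27ac and 6.21% had control PolII. Over all genes the shares with and without KAP1 were 48.9% and 14.6% for H3K27ac and 44.3% and 7.32% for control PolII, so the same order was seen across the genome. The 22 peaks behind the 24 promoters had a median score of 71.1, and 95.5% of them met H3K27ac or H3K4me1, against 78.2% of the promoter peaks of all genes. Zfp646 and Zfp668, which start close together on opposite strands, shared 1 peak of score 160. KAP1 lay over both promoter and 3′ exon in 5 members (Zfp12, Zfp316, Zfp398, Zfp787 and Zfp672), which is 2.49% (1.07 to 5.69%), near the 1.59% of all genes and under the 5.07% of the unclustered Zfp genes.

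PolII lay over the promoter of 25 members in the control (12.4%, 8.57 to 17.7%) and of 53 under Kap1 KD (26.4%, 20.8 to 32.9%), against 13.1% and 23.3% of all genes and 27.5% and 46.4% of the unclustered Zfp genes. The Kap1 KD list was longer, with 12862 peaks against 5015, and cut by score to the length of the control list it reached 20 members (9.95%). The share of all genes after this cut was not counted. PolII was called in both conditions at 23 members (12.4% of all genes), under Kap1 KD only at 30 (14.9% of members, 20.3% of the unclustered Zfp genes and 10.9% of all genes) and in the control only at 2, Zfp777 and Zfp35 (0.733% of all genes). At the 30, the Kap1 KD score ran from 19 to 100 with a median of 38, and at the 23 from 24 to 169 with a median of 70. Zfp52 (100), Zfp574 (89), Zfp948 (84) and Zfp191 (82) had the highest scores among the 30, followed by Zfp771, Zfp746, Zfp524 and Zfp263 (72 to 63). Peak numbers missing from the control list fell at 5 of the 30 promoters, so a control call removed before deposit is possible there. At 2 more, Zfp263 and Zfp597, no deposited control peak lay on one side, and a removed call could not be checked. Of the 30, 13 (43.3%, 27.4 to 60.8%) had H3K9me3 and 4 (13.3%, 5.31 to 29.7%) had KAP1 over the 3′ exon. Both intervals hold the shares of all members, 57.2% and 25.4%. KAP1 lay over the promoter of 4 (13.3%), near the 11.9% of all members, and H3K27ac over that of 21 (70.0%), above their 34.3%. Among the 2445 genes of the whole set with PolII under Kap1 KD only, these 4 shares were 4.09%, 3.23%, 32.6% and 47.6%. In the 28 unclustered Zfp genes of this kind they were 35.7%, 21.4%, 32.1% and 50%. Of all unclustered Zfp genes, 26.8% had H3K9me3 and 15.2% had KAP1 over the 3′ exon, so the order there was the other way. With 1 library a condition, the knockdown and the difference between these libraries cannot be told apart.

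The gene bodies held H3K9me3 in 107 members (53.2%), against 20.8% of all genes, 36.2% of the unclustered Zfp genes and 49.3% of the other genes with 5 or more C2H2 matches, and 89 of these also had it over the 3′ exon. KAP1 lay over the body of 52 members (25.9%, against 22.1%), H3K27ac of 89 (44.3%, against 39.5%) and H3K4me1 of 111 (55.2%, against 48.6%). PolII lay over the body of 18 members in the control (8.96%, against 13.7%) and of 55 under Kap1 KD (27.4%, against 25.6%). The unclustered Zfp genes stood higher in each, at 39.1% for KAP1, 55.1% for H3K27ac, 65.9% for H3K4me1, 27.5% for control PolII and 42% for Kap1 KD PolII. The 2 active histone marks and PolII were rare over the 3′ exon. H3K27ac was there in 2 members (4.58% of all genes), H3K4me1 in 3 (8.47%), control PolII in 2 (4.27%) and Kap1 KD PolII in 9 (7.13%). In the other genes with 5 or more C2H2 matches these shares were 1.67%, 4.67%, 2% and 4.67%. In the unclustered Zfp genes they were 2.9%, 4.35%, 5.07% and 9.42%.

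PolIII, which transcribes transfer RNAs and other short RNAs, was called at few members. In the control it lay over the gene of 2 members (3.65% of all genes), in both cases over the body, Zfp442 with score 32 and Zfp663 with score 49. Under Kap1 KD it lay over none (0.63% of all genes). Of the peak numbers, 30.4% are missing from the control list of PolIII and 55% from the Kap1 KD list, and removed calls could not be checked. It met no promoter of a member in either condition (0.344% and 0.134% of all genes) and no 3′ exon (0.456% and 0.0447%), and over the body of all genes it stood at 3.37% and 0.541%. Both members are on chromosome 2, and without chromosomes 1 to 4 none of 193 members had control PolIII. The share of all genes on the other chromosomes was not counted. No list at all lay over 23 members (11.4%), against 33.4% of all genes, 11.6% of the unclustered Zfp genes and 12% of the other genes with 5 or more C2H2 matches.

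Cluster by cluster, the 3′ exon lists ranged from all members to none. H3K9me3 lay over the 3′ exon of every member in 15 clusters (34 genes), and of no member in 5 clusters (16 genes). KAP1 lay over that of every member in 8 clusters (17 genes) and of none in 20 (62 genes). Clusters of 2 had a larger share with KAP1 (46.3% of 54 members) than clusters of 3 or 4 (15.2% of 33) and of 5 or more (18.4% of 114). For H3K9me3 these shares were 66.7%, 54.5% and 53.5%.

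**Figure D4:**
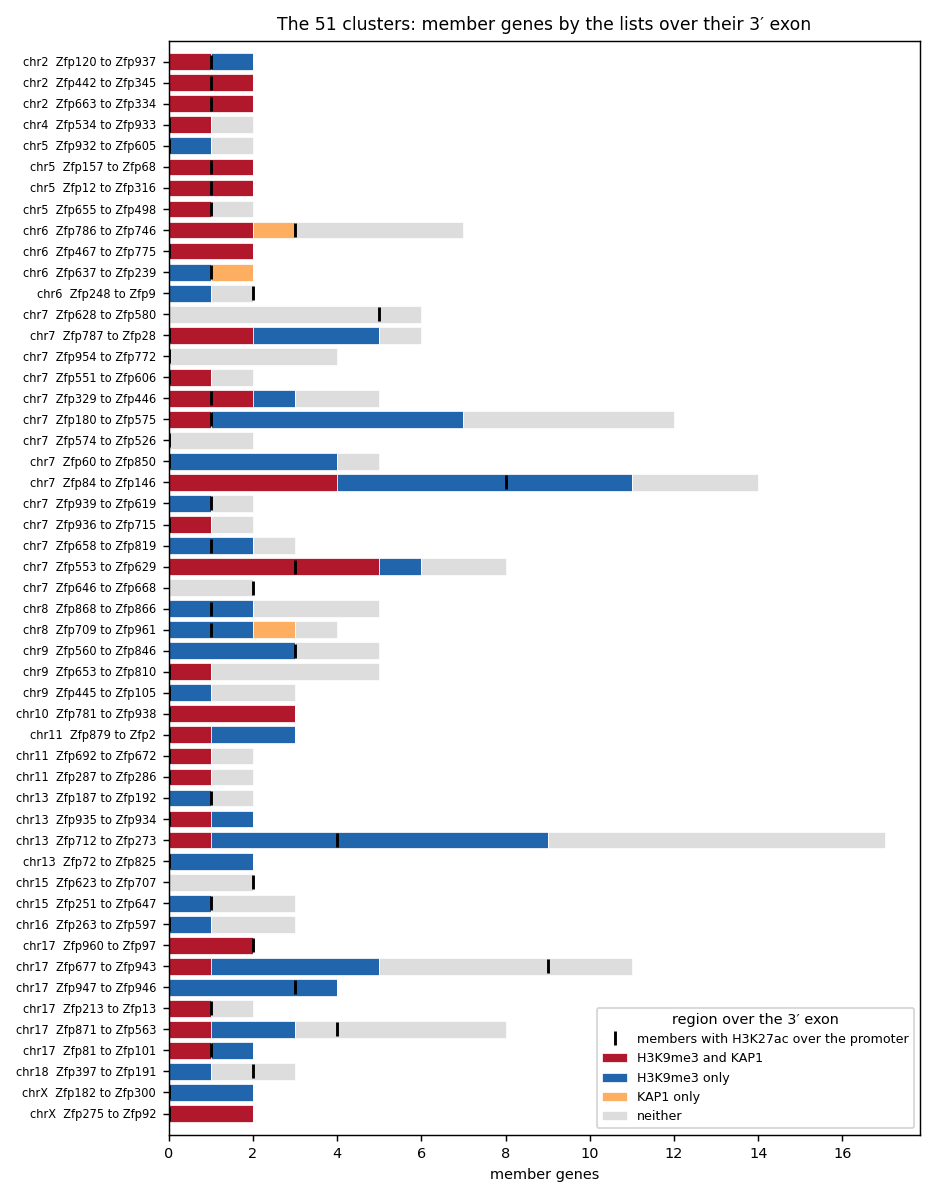
Member genes of each of the 51 clusters by the lists over the 3′ exon, with clusters in genome order and the count of genes on the horizontal axis. Black ticks give the members with H3K27ac over the promoter. Every member has H3K9me3 over the 3′ exon in 15 clusters and none has it in 5.

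On chromosome 7, the 14 genes of Zfp84 to Zfp146 had H3K9me3 over 11 3′ exons and KAP1 over 4 (Zfp30, Zfp420, Zfp27 and Zfp146), and H3K27ac over 8 promoters. The 12 genes of Zfp180 to Zfp575 had H3K9me3 over 7 3′ exons, with KAP1 at Zfp180 alone, and H3K27ac over the promoter of Zfp94 alone. In Zfp553 to Zfp629, 5 of 8 genes had KAP1 and 6 had H3K9me3 over the 3′ exon, and PolII lay over 4 promoters in the control and 6 under Kap1 KD. In Zfp787 to Zfp28, 5 of 6 genes had H3K9me3 over the 3′ exon (all but Zfp78), and in Zfp60 to Zfp850, 4 of 5 did, with no KAP1. In Zfp329 to Zfp446, 3 of 5 genes had H3K9me3 and 2 had KAP1. In Zfp628 to Zfp580 none of the 6 genes had either list over the 3′ exon, and 5 had H3K27ac over the promoter. One of them, Zfp865, had both lists over its finger array, which lies outside its 3′ exon of 376 bp.

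On chromosome 13, Zfp712 to Zfp273 had H3K9me3 over 9 of 17 3′ exons and KAP1 over that of Zfp712 alone. Its gene bodies held H3K9me3 in 12 genes, and 4 promoters had H3K27ac. On chromosome 17, Zfp677 to Zfp943 had H3K27ac over 9 of 11 promoters, H3K9me3 over 5 3′ exons and PolII over 2 promoters in the control and 7 under Kap1 KD. Zfp871 to Zfp563 had H3K9me3 over 3 of 8 3′ exons, H3K27ac over 4 promoters and no PolII over a promoter in either condition. In Zfp947 to Zfp946 all 4 genes had H3K9me3 over the 3′ exon, none had KAP1 there, and 3 had H3K27ac over the promoter.

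On chromosome 6, Zfp786 to Zfp746 had H3K4me1 over 6 of 7 promoters, KAP1 over 3 3′ exons and H3K9me3 over 2 (Zfp282 and Zfp777). On chromosome 8, 2 of the 5 genes of Zfp868 to Zfp866 had H3K9me3 over the 3′ exon and none had KAP1. The 2 clusters of 5 on chromosome 9 had H3K9me3 over 3 3′ exons (Zfp560 to Zfp846) and 1 (Zfp653 to Zfp810). The lists were sparse on that chromosome, where 2.61% of all genes had H3K9me3 and 0.87% had KAP1 over the 3′ exon. A low count there, as in Zfp653 to Zfp810, cannot be told apart from the sparse lists.

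**Figure D5:**
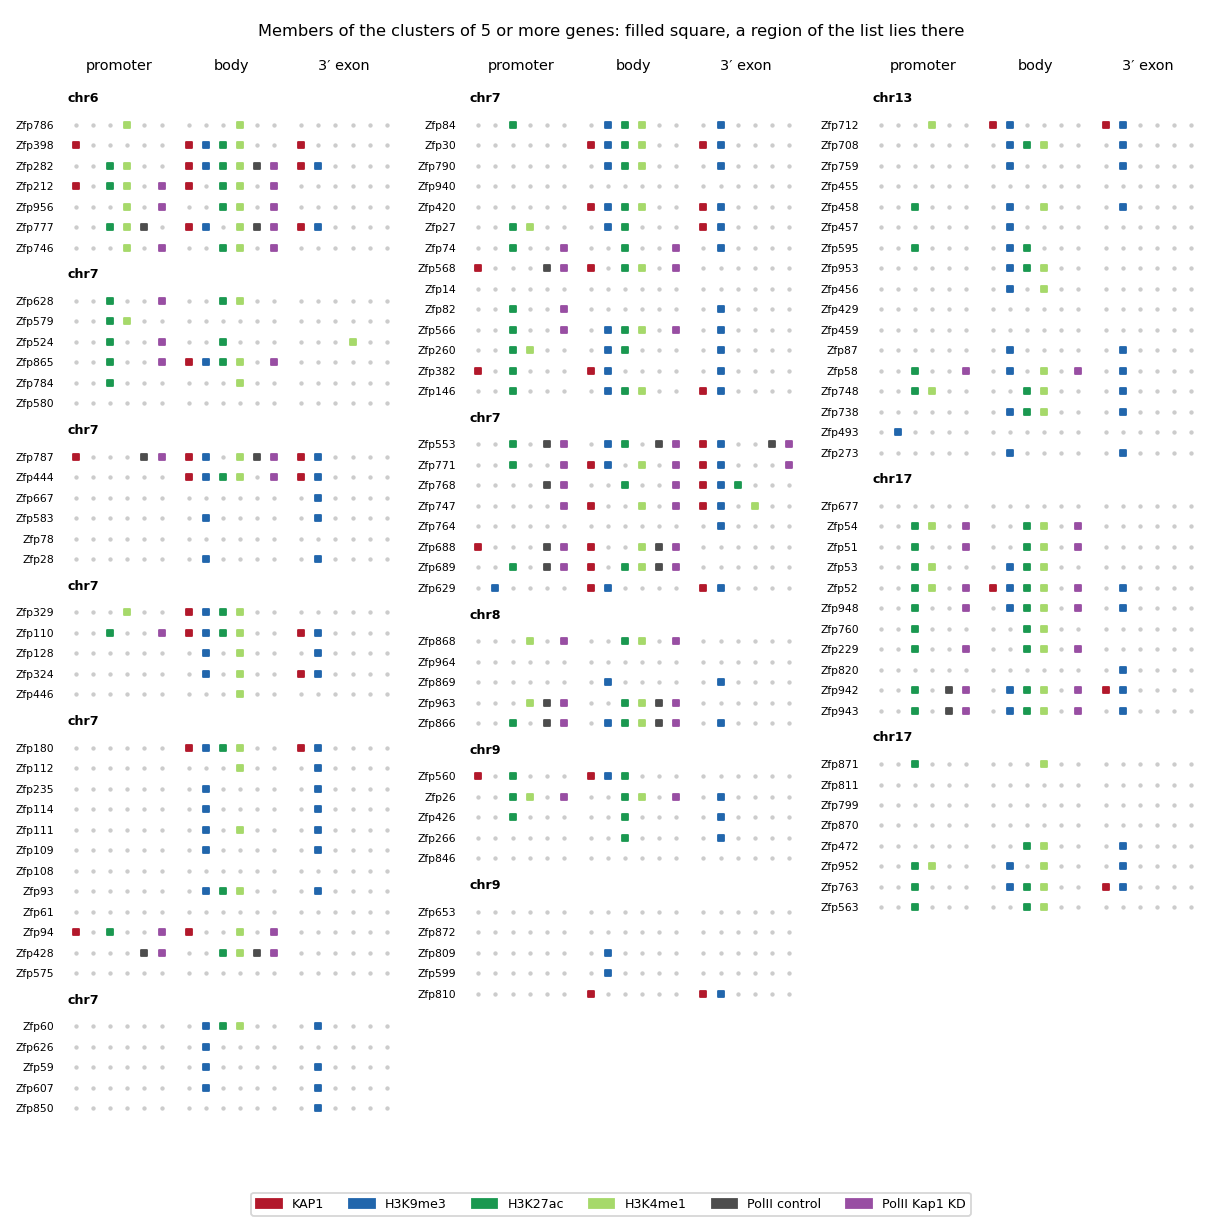
The 114 members of the 14 clusters of 5 or more genes, 1 row each, in genome order within a cluster. Filled squares mark a region of KAP1, H3K9me3, H3K27ac, H3K4me1, PolII control or PolII Kap1 KD over the promoter, body or 3′ exon, and grey dots mark none. H3K9me3 (blue) fills the 3′ exon of 61 of the 114, and H3K27ac, H3K4me1 and PolII fill mostly promoters and bodies.

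Among the small clusters, Zfp12 to Zfp316 on chromosome 5 had 91.6% of its 34.9 kb in H3K9me3 and 25.8% in KAP1. Zfp960 to Zfp97 on chromosome 17 had 69.0% in H3K9me3, with both lists over both 3′ exons and H3K27ac over both promoters. All 3 genes of Zfp781 to Zfp938 on chromosome 10 had both lists over the 3′ exon, and all 3 of Zfp879 to Zfp2 on chromosome 11 had H3K9me3 over promoter and 3′ exon. Zfp646 to Zfp668 had neither list over a 3′ exon and had KAP1, H3K27ac and PolII in both conditions over both promoters. Over all clusters, the spans added up to 8.5 Mb, of which 10.1% lay in H3K9me3 (1.56% of the genome), 2.44% in KAP1 (0.612%) and 1.97% in H3K27ac (1.9%).

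The genes of KAP1 and its partners were listed beside the zinc finger genes. None of the 12 (Trim28, Setdb1, Atf7ip, Cbx1, Cbx3, Cbx5, Chd4, Hdac1, Hdac2, Kdm1a, Dnmt1 and Uhrf1) had KAP1 or H3K9me3 over the 3′ exon, and at 3.17% and 6.07% of all genes so short a list need not hold any. KAP1 lay over 4 of their promoters (15.7% of all genes), control PolII over 5 (13.1%) and Kap1 KD PolII over 11 (23.3%).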

How the data were processed

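The authors mapped reads with Bowtie to mm9 and used MACS with input for KAP1 and PolII and ChIP-Part for the histone marks, per the methods of the study. The PolIII caller and all options are not given in the sources used here. The deposited KAP1 list has a score per peak, taken as that of MACS, and the authors' PolII and PolIII lists have a score whose meaning was not stated. Scores only ranked peaks within a list. Regions were overlapped with GENCODE M1 genes in Python 3.11.15, without mitochondrial genes, and positions count from 1. Symbols with several records were counted once, by the longest coding sequence (4 records set aside). Some genes are not reported here. C2H2 matches were counted in translated coding sequences. Intervals are Wilson intervals (scipy 1.17.1). No test was run, since each group is 1 library. The overlap code was tested on simulated intervals. Named genes were Zfp180, the highest KAP1 score over a 3′ exon in each cluster of 5 or more, up to 8 promoters with PolII in 1 condition only, and every member with PolIII. Other genes named were chosen after their values were seen. The members, lists and rules were chosen with earlier results of these data known.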

Additional observations from a re-analysis of the deposited data

How the results depend on the processing

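Of 59 alternatives to 11 shares, 50 stayed inside the main 95% Wilson interval, among them links of 100 kb (178 genes) or 500 kb (222), leaving out the largest cluster, keeping second annotated records and leaving out chromosome 7. The last 2, and the gene body that includes the 3′ exon, were chosen after seeing the data. The others moved. With at least 50% of the exon covered, 17.4% of members had KAP1 and 36.8% H3K9me3 over the 3′ exon. With KAP1 peaks above the median score, 2.49% had KAP1 over the promoter. With a promoter of 1 kb to each side, 9.95% had H3K9me3 and 49.8% H3K27ac. The Kap1 KD PolII list cut to the length of the control list gave 9.95%. Control PolIII without chromosomes 1 to 4 gave 0%. A gene body with the 3′ exon gave 38.3% for KAP1 and 66.2% for H3K9me3. Apart from H3K9me3 over at least 50% of the exon, these moved shares were not counted over all genes. No paired analysis was possible because each group with a list holds 1 library, and for the same reason no replicate could be left out. Unknown depth limits every absence of a region.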
